A study of Mus musculus with 8 samples.

Results

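Undifferentiated spermatogonia, the testis cells that hold the stem cells of the male germline, are kept in their state by a set of DNA-binding and RNA-binding proteins. The 10 genes described here encode regulators linked to these cells, not all of them known to keep that state: Zbtb16, Sall4, Foxo1, Taf4b, Pou5f1, Nanos2, Nanos3, Eomes, Pax7 and Utf1. They were taken by gene symbol, and all 10 had a row among the 14853 genes of the authors' deposited table. Most act on transcription, whereas Nanos2 and Nanos3 encode RNA-binding repressors of translation.

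The table compares 2 groups of mice of strain C57BL/6, 8 to 12 weeks old, 4 samples each. The CreER/flox group, titled TERT-del, carried at Tert a CreER allele opposite a loxP-flanked allele. The CreER/+ group, titled TERT-hetero, carried the CreER allele opposite a normal one, so its mice were heterozygous carriers and not wild type. Mice of both groups also carried the Rosa lsl-Tdtomato reporter, which turns cells with active Cre red, and all received tamoxifen, which activates CreER. CreER is made from the Tert locus, so that recombination depends on transcription of Tert in a cell. On day 7 tdTomato-positive cells that lacked KIT and had high MCAM were sorted, and their total RNA was sequenced with a stranded low-input kit. The labels do not say whether the samples of a group came from separate animals, so p-values measure the spread between these samples, which may be technical.

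The study asks how loss of Tert, the catalytic subunit of telomerase, changes gene expression in these cells. Fold changes are log2 values of CreER/flox over CreER/+ with their standard error (SE), and the direction was read from the table's name, which sets FLOX against WT. In the authors' deposited table Tert itself stood at 0.29 (SE 0.26, adjusted p 0.595 by the DESeq2 Wald test) at a mean normalized count of 98.0. The exons lost to Cre are unknown here, and that value therefore checks neither the labels nor the direction. A mean normalized count is a read count scaled for depth and averaged over all 8 libraries of both groups. Values of each library and library totals were not used here, so no level is given by group. Over all genes this count had a median of 192 and a minimum of 10.4.

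Transcripts that mark undifferentiated spermatogonia were present in the sorted cells. All 14 listed markers of undifferentiated spermatogonia had a row, at mean normalized counts between 22.9 (Thy1) and 4854 (Mcam, the surface protein used in the sort) in the authors' deposited table. None of them was called at an adjusted p under 0.05 (DESeq2 Wald test; 3 had an unadjusted p under 0.05), and their median log2 fold change was -0.017, against 0.00071 over all genes. The smallest p values among them were those of Ret, the GDNF co-receptor kinase (-0.23, SE 0.08, adjusted p 0.0798), and Cd9 (0.29, SE 0.12, adjusted p 0.138) by the Wald test in the authors' deposited table. Kit, the receptor excluded by the gate, averaged 93.1 normalized counts in the authors' deposited table. A row does not by itself mark the identity of the cells, since all 14 spermatid and 5 of 6 endothelial markers also had one.

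Some markers of somatic testis cells were measured too. The authors' deposited table had rows for 5 of 9 Sertoli, 1 of 6 Leydig, 3 of 6 myoid, 5 of 6 endothelial and 2 of 7 leukocyte markers, with summed mean normalized counts of 395, 46.4, 122, 291 and 31.7. Amh, Insl3, Acta2 and Ptprc were among those without a row. Trf, the transferrin gene of Sertoli cells, was called higher (0.62, SE 0.15, adjusted p 0.00255 by the Wald test) in the authors' deposited table, where its mean normalized count was 316. The smooth muscle actin gene Actg2, of the myoid list, was called lower (-1.17, SE 0.37, adjusted p 0.0340 by the Wald test) in the authors' deposited table, where its mean normalized count was 89.0. No other marker of these 5 lists was called. Calls of cell type markers, here and below, were not put through the alternative settings given under processing. Of the 5 measured Sertoli markers 3 were above 0 and 2 below, Sox9 at -0.50 (SE 0.49) and Wt1 at -0.029 (SE 0.38) in the authors' deposited table. Besides Trf, the Sertoli markers had mean normalized counts between 16.2 (Rhox5) and 24.3 (Wt1), near the minimum of 10.4 over all genes. Median log2 fold changes were 0.35 for Sertoli, -1.05 for myoid, 0.0048 for endothelial and 0.38 for leukocyte markers, and the single Leydig gene, Star, stood at -0.47. In the authors' deposited table the endothelial and leukocyte markers that came nearest to a call were Tek (-0.38, SE 0.24), Vwf (-0.61, SE 0.51), Cd3e (0.90, SE 0.48) and Cd68 (-0.14, SE 0.52).

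Spermatid transcripts were also present, with lower values in CreER/flox and, for several, wide SEs. In the authors' deposited table all 14 spermatid markers were below 0, and 6 were called lower, with a median log2 fold change of -1.12 and a sum of 10305 mean normalized counts. The first 4 by adjusted p in the authors' deposited table were Odf1 of the sperm tail (-1.14, SE 0.22), Spem1 (-1.47, SE 0.33), the testis kinase gene Tssk1 (-1.37, SE 0.33) and Odf2 (-0.82, SE 0.26). For comparison, the summed mean normalized count of the 10 regulators was 13006. Some spermatid SEs were wide for the count, as for the uncalled Prm1 (SE 0.45 at 1260) and Tnp1 (SE 0.38 at 1924). The 200 genes nearest Taf4b (1330) in mean normalized count had a median SE of 0.082. Spaca1 (SE 0.20 at 125) was near the median SE of 0.18 around Pou5f1 (147). Spread between samples of a group was not examined, since values of each library were not used. The part of spermatid and somatic transcripts in the values below was not tested, and in such bulk samples fewer cells of a type and less RNA per cell cannot be told apart.

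As background, ZBTB16 (also called PLZF) and SALL4 are zinc finger proteins that maintain the undifferentiated state, and SALL4 can bind ZBTB16 and the NuRD chromatin complex. FOXO1 is a forkhead factor that AKT moves out of the nucleus when PI3K signalling is active. NANOS2 acts downstream of the growth factor GDNF and holds spermatogonia in the stem cell state by repressing mRNAs through the CCR4-NOT deadenylase.

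None of the 10 regulators passed an adjusted p of 0.05 in the authors' deposited table (DESeq2 Wald test), where 5.36% of all genes did (1.94% higher and 3.42% lower). At an unadjusted p under 0.05 there were 2, Zbtb16 and Pax7, against 19.7% of all genes. On the log2 scale 5 of the fold changes were below 0 and 5 above, from -0.41 for Nanos3 to 0.73 for Pax7, with a median of 0.055, against 50.1% of all genes above 0 and a median of 0.00071.

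The regulators spanned a wide range of abundance. Zbtb16 was the most abundant in the authors' deposited table, where its mean normalized count of 5143 put it in place 172 of all genes, and Utf1 the scarcest at 14.9, in place 14117. Because longer transcripts collect more reads, levels were compared per kilobase (kb) of the longest GENCODE transcript. On this scale the order was Zbtb16 (1006 per kb), Sall4 (686), Foxo1 (280), Taf4b (258), Pou5f1 (108), Nanos3 (104), Eomes (82.9), Nanos2 (42.3), Utf1 (12.1) and Pax7 (5.13). With the median transcript length in place of the longest, Sall4 (4502 per kb) stood above Zbtb16 (1350 per kb). The other 8 regulators kept their places, among them Pou5f1, at 248 per kb. With the longest transcript, Zbtb16 lay at the 97.1 percentile of protein-coding genes per kb and Pax7 at the 5.19 percentile. The table gives no spread over samples for these levels, so whether neighbours such as Foxo1 and Taf4b, or Pou5f1 and Nanos3, differ was not tested. Eomes and Pax7 are known to be expressed in small subsets of undifferentiated spermatogonia, and a level in sorted bulk RNA does not separate few high cells from many low ones.

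**Figure D1:**
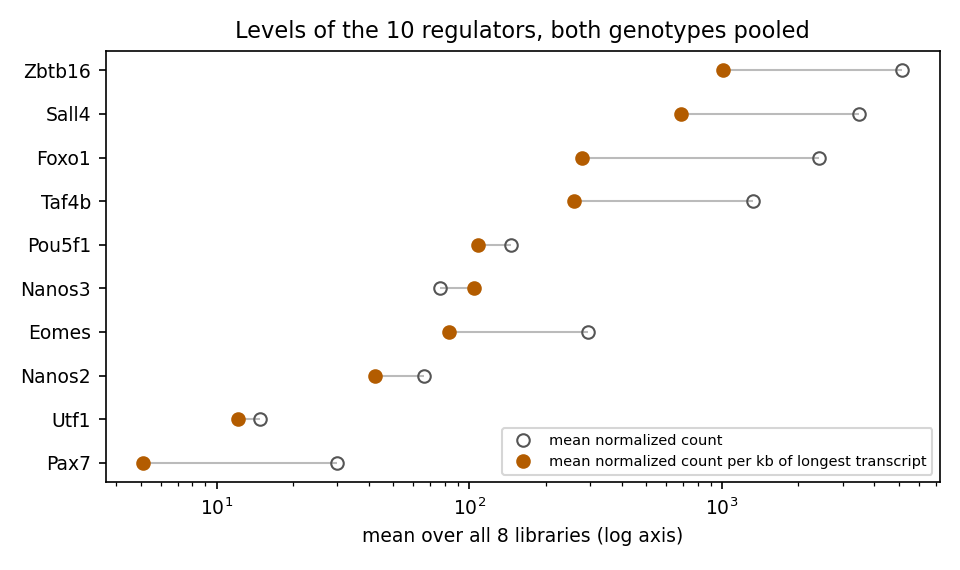
Mean normalized count (open circles) and mean normalized count per kb of the longest transcript (filled circles) of each regulator on a log axis, averaged over all 8 libraries of both genotypes. Per kb, Zbtb16 stands at 1006 and Pax7 at 5.13, and Nanos3 is the only gene whose value per kb exceeds its count, because its longest transcript is under 1 kb (730 bases).

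Both zinc finger genes were below 0 without passing the test. Zbtb16 (Entrez gene 235320, minus strand of chromosome 9, 48651797 to 48836225 in GRCm38, 7 exons in its longest transcript) showed a log2 difference of -0.18 (SE 0.07, p 0.00704, adjusted p 0.0875 by the Wald test) in the authors' deposited table. This corresponds to 0.88 times the CreER/+ level, with a 95% interval from 0.80 to 0.97 times. It was the regulator of smallest p, in place 1195 of all genes by p. At a looser adjusted p of 0.1 it would be the 1 regulator called, where 9.02% of all genes pass. With the SE of this gene, a log2 fold change of 0.20 or more was needed to be called, so Zbtb16 missed the threshold by a small margin. Widening the interval by 1.45, the null SD estimated from the central Wald statistics of the table, gave -0.37 to 0.010, which includes 0. This estimate treats the central genes as unchanged, and real differences among them would widen it too. No other gene of the GENCODE annotation overlaps Zbtb16.

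Sall4 (Entrez gene 99377, minus strand of chromosome 2, 168748332 to 168767201, 4 exons in its longest transcript) showed a log2 difference of -0.085 (SE 0.08, adjusted p 0.601 by the Wald test) in the authors' deposited table, where its mean normalized count was 3480. Its 95% interval ran from -0.24 to 0.068, that is from 0.85 to 1.05 times the CreER/+ level. A change of 0.23 (1.18-fold) or more would have been called.

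Foxo1 and Taf4b were measured with like precision. Foxo1 (Entrez gene 56458, plus strand of chromosome 3, 52268337 to 52350109, 3 exons) stood at -0.050 (SE 0.07, adjusted p 0.745 by the Wald test) in the authors' deposited table, with a 95% interval of -0.18 to 0.078. Taf4b (Entrez gene 72504, plus strand of chromosome 18, 14783201 to 14960424, 15 exons) encodes a gonad-enriched subunit of TFIID, the complex that places RNA polymerase II at promoters. It stood at -0.063 (SE 0.07, adjusted p 0.677 by the Wald test) in the authors' deposited table, with a 95% interval of -0.19 to 0.070. For each of these genes a change of 1.15-fold would have been called, and the lower bounds of their intervals stand at 0.88 and 0.87 times the CreER/+ level. The SE of Taf4b was 0.82 times the median SE of the 200 genes nearest in mean normalized count, and that of Foxo1 0.90 times.

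The 4 regulators with a mean normalized count over 1000 (Zbtb16, Sall4, Foxo1 and Taf4b) were all below 0, between -0.18 and -0.050, whereas 63.2% of the 2157 genes in that range were above 0 in the authors' deposited table. Of the 6 regulators at 1000 or less, 5 were above 0, against 47.9% of the genes in that range. The split at 1000 was chosen after these values were seen, and no test was made of it.

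**Figure D2:**
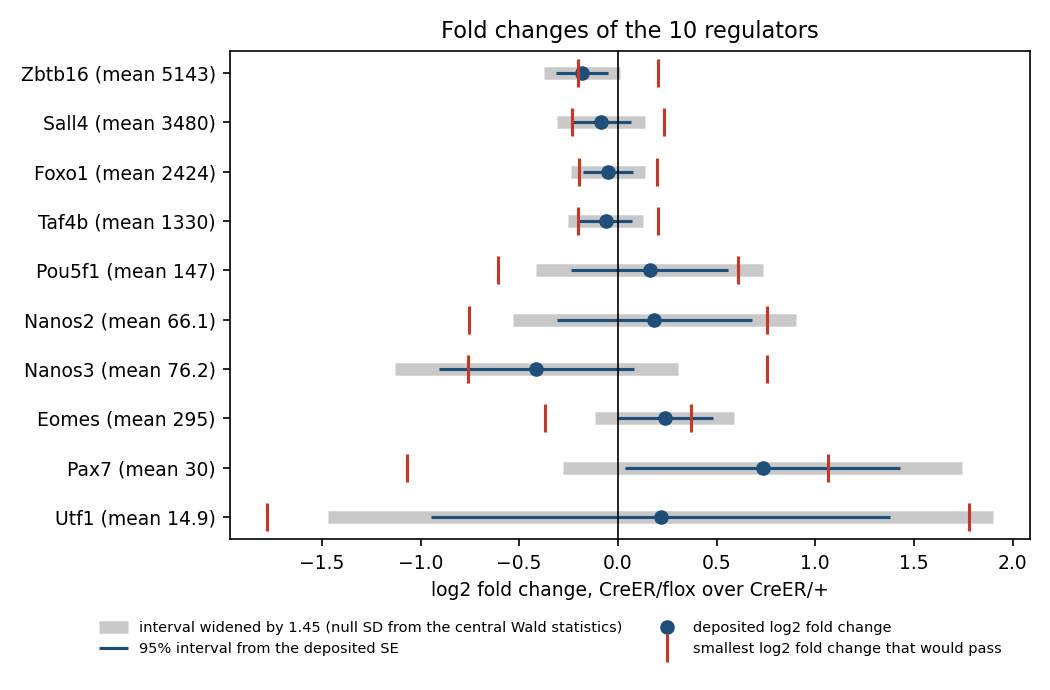
Log2 fold change of CreER/flox over CreER/+ for each regulator (points) with its 95% interval (blue lines), the same interval widened by 1.45 (grey bars) and the smallest change that would have been called (red ticks). No point lies beyond its red ticks; Zbtb16 at -0.18 comes nearest to its own at 0.20, and the intervals of Zbtb16 and Pax7 are the only blue ones that leave out 0.

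The NANOS genes had values on opposite sides of 0. Nanos3 (Entrez gene 244551, minus strand of chromosome 8, 84173733 to 84176552, 2 exons in its longest transcript), which is expressed more widely among undifferentiated spermatogonia than Nanos2, stood at -0.41 (SE 0.25, adjusted p 0.368 by the Wald test) in the authors' deposited table, where its mean normalized count was 76.2. Its 95% interval ran from -0.91 to 0.081. Nanos2 (Entrez gene 378430, plus strand of chromosome 7, 18987524 to 18988962, 1 exon) stood at 0.18 (SE 0.25, adjusted p 0.757 by the Wald test) in the authors' deposited table, where its mean normalized count was 66.1. Its 95% interval of -0.31 to 0.68 overlaps that of Nanos3, and the difference between the genes was not tested. Only changes of at least 1.69-fold would have been called for either gene. In GENCODE the Nanos3 gene region also spans the microRNA genes Mir181c and Mir181d on the same strand, and an antisense gene, Gm45058, overlaps Nanos2. How strand was treated in the counting is not stated, so reads of antisense partners could count for Nanos2, and likewise for Sall4, Foxo1, Pou5f1 and Eomes, each of which has an annotated gene on the opposite strand.

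Pou5f1 and Utf1 are linked to pluripotency. POU5F1, also called OCT4, is a POU-domain factor of embryonic stem cells, and UTF1 is a chromatin-bound protein of those cells and of early spermatogonia. Pou5f1 (Entrez gene 18999, plus strand of chromosome 17, 35506032 to 35510777, 5 exons in its longest transcript) stood at 0.16 (SE 0.20, adjusted p 0.734 by the Wald test) in the authors' deposited table, where its mean normalized count was 147. Its 95% interval ran from 0.85 to 1.47 times the CreER/+ level. Utf1 (Entrez gene 22286, plus strand of chromosome 7, 139943856 to 139945112, 2 exons) stood at 0.22 (SE 0.59, adjusted p 0.897 by the Wald test) in the authors' deposited table. At a mean normalized count of 14.9 only a change of at least 3.43-fold would have been called for Utf1, and its 95% interval of -0.95 to 1.38 allows a change of either sign.

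Eomes and Pax7 had the highest fold changes of the set, neither of which passed the test. Eomes (Entrez gene 13813, plus strand of chromosome 9, 118478186 to 118486132, 6 exons in its longest transcript), a T-box factor found in a GFRA1-positive stem cell subset, stood at 0.24 (SE 0.12, p 0.0537, adjusted p 0.263 by the Wald test) in the authors' deposited table, where its mean normalized count was 295. Its 95% interval ran from -0.0038 to 0.48, and a change of 0.37 (1.29-fold) would have been called. Pax7 (Entrez gene 18509, minus strand of chromosome 4, 139737059 to 139833530, 9 exons in its longest transcript), a paired-box factor also known from muscle stem cells, stood at 0.73 (SE 0.36, p 0.0391, adjusted p 0.221 by the Wald test) in the authors' deposited table, where its mean normalized count was 30.0. That is 1.66-fold the CreER/+ level, with a 95% interval from 1.03-fold to 2.69-fold. The interval widened by 1.45 ran from -0.28 to 1.74 on the log2 scale and includes 0.

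**Figure D3:**
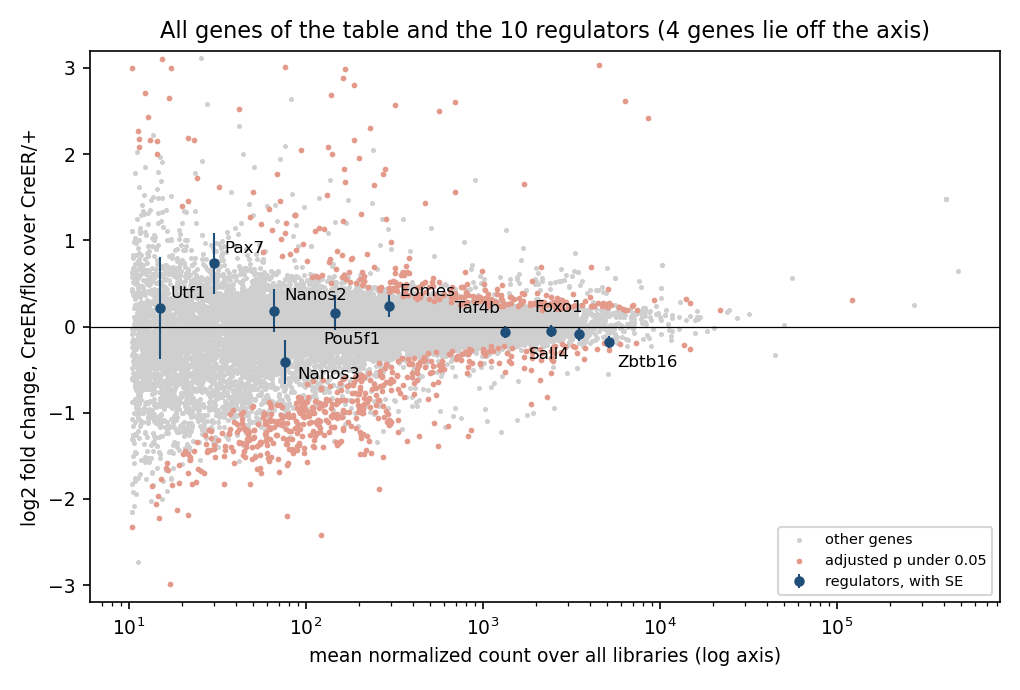
Log2 fold change of CreER/flox over CreER/+ against mean normalized count (log axis) for every gene of the authors' deposited table, with genes at an adjusted p under 0.05 in red and the regulators in blue with their SE. The regulators lie within the grey body of uncalled genes at every abundance, with Zbtb16 (5143) at its lower edge and 4 genes of the table beyond the vertical axis.

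The nearest relatives of the regulators were read beside them. Per kb, Sall4 (686) stood above Sall1 (96.8), Sall3 (33.3) and Sall2 (2.78), and Taf4b (258) above its widely expressed counterpart Taf4 (70.9). Foxo1 (280 per kb) was followed by Foxo3 (217), Foxo6 (178) and Foxo4 (101), and Zbtb16 (1006 per kb) was the first of 42 measured ZBTB genes (with Bcl6 and Bcl6b among them), ahead of Zbtb43 (265). Nanos1 stood at 77.1 per kb, between Nanos3 (104) and Nanos2 (42.3). Of 20 paralogues with a row, 4 were above 0 on the log2 fold change scale and 16 below, with a median of -0.072. In the authors' deposited table none of these was called (DESeq2 Wald test; 1 had an unadjusted p under 0.05). That gene was Pax3, a close relative of Pax7, at 1.60 (SE 0.53, adjusted p 0.0503 by the Wald test) in the authors' deposited table, with a mean normalized count of 14.4. Nanos1 stood at -0.25 (SE 0.13, adjusted p 0.261 by the Wald test) in the authors' deposited table. The values of Foxo3 (-0.065), Foxo4 (-0.099) and Foxo6 (-0.059) in the authors' deposited table were all below 0, as was that of Foxo1, and none was called.

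Other regulators of spermatogonia, most of them of transcription, were counted next. They include Lin28a, which encodes an RNA-binding protein. Dmrtb1, Sohlh1 and Sohlh2 are also in the list of differentiating markers below. Of 27 such genes, all measured, 1 was called higher and none lower in the authors' deposited table (DESeq2 Wald test; 4 had an unadjusted p under 0.05), with 13 above 0 and a median log2 fold change of -0.0013. Over this list, the paralogues above and the lists that follow, without the cell type markers, 4 of 165 genes (2.42%) were called, against 5.36% of all genes. None of the 4 was called with a t distribution of 6 degrees of freedom or with the estimated null SD. Both settings raise p for every gene, and the share of all genes called under them is not given here. The called gene was Bmi1, a Polycomb repressor, at 0.29 (SE 0.07, adjusted p 0.00643 by the Wald test) in the authors' deposited table, and this call was lost once a linear trend with mean count, GC content and length was removed. In the authors' deposited table Id4, an inhibitor of basic helix-loop-helix factors, stood at -0.0013 (SE 0.10), Etv5, an effector of GDNF signalling, at -0.076 (SE 0.08) and Bcl6b at 0.0022 (SE 0.11). Other genes linked to the stem cell end of the population lay further from 0 without being called: Pdx1 stood at -0.25 (SE 0.21) and Foxc2 at 0.13 (SE 0.09) in the authors' deposited table. Id4, Etv5, Bcl6b, Pdx1 and Foxc2 were picked after their values were seen. Among the uncalled genes of this list the smallest p values were those of Mycn (0.31, SE 0.10, adjusted p 0.0501) and Dmrtb1 (-0.91, SE 0.37, adjusted p 0.126) by the Wald test in the authors' deposited table.

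Genes whose products act with the regulators were examined in turn. Of 13 genes of NuRD, the nucleosome remodelling and deacetylase complex that SALL4 recruits, 1 was called lower and none higher in the authors' deposited table, with a median log2 fold change of 0.040. The called gene, the remodeller Chd3, fell by 0.42 on the log2 scale (SE 0.08, adjusted p 9.27e-05 by the Wald test) in the authors' deposited table. Of the 18 measured genes of TFIID subunits and related factors besides Taf4b, none was called (DESeq2 Wald test, 2 had an unadjusted p under 0.05). Among the 18, 13 were above 0 and the median was 0.077. This list holds Taf15 and the TBP relative Tbpl1, which is also in the spermatocyte list below. The smallest p values were those of Taf7 (0.20, SE 0.07, adjusted p 0.0762) and Taf5 (0.19, SE 0.09, adjusted p 0.191) by the Wald test in the authors' deposited table.

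The PI3K, AKT and mTOR pathway, which sets where FOXO1 resides in the cell, had 15 of 21 genes below 0 and a median log2 fold change of -0.059. Its called gene was Mtor, the growth-controlling kinase downstream of AKT, which fell by 0.20 (SE 0.06, adjusted p 0.0214 by the Wald test) in the authors' deposited table. This call, too, was lost with the trend removed. RNA levels of these genes do not measure the activity of the pathway or the position of FOXO1 protein. Of 20 Pumilio, DND1, CCR4-NOT and related genes that act with NANOS proteins, 12 were above 0, the median was 0.026 and none was called (DESeq2 Wald test; 1 had an unadjusted p under 0.05). That gene was Cnot8, a deadenylase subunit, at 0.26 (SE 0.10, adjusted p 0.106 by the Wald test) in the authors' deposited table.

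Pluripotency and primordial germ cell factors linked to POU5F1 had 16 of 20 genes with a row, among them 8 above 0, a median log2 fold change of 0.011 and no call (DESeq2 Wald test; 3 had an unadjusted p under 0.05). Sox2, Dppa3, Prdm14 and Nr0b1 had no row. The smallest p values belonged to Zfp42, also known as Rex1 (0.44, SE 0.16, adjusted p 0.0790), and Nanog (0.46, SE 0.23, adjusted p 0.222) by the Wald test in the authors' deposited table. Nanog has near-identical pseudogene copies that could share its reads, so its value is uncertain. Among the 41 measured ZBTB family genes besides Zbtb16, 25 were above 0, the median was 0.023, and 1 was called higher and none lower in the authors' deposited table. The called gene was Zbtb1, at 0.41 (SE 0.12, adjusted p 0.0236 by the Wald test) in the authors' deposited table.

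**Figure D4:**
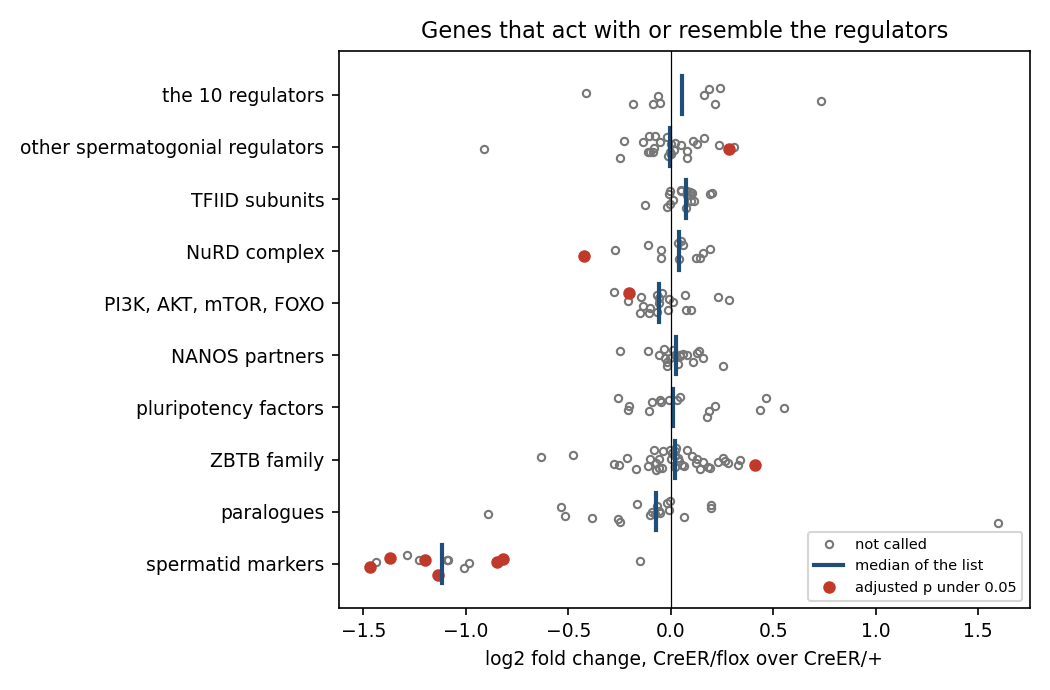
Log2 fold change of CreER/flox over CreER/+ for each measured gene of the lists around the regulators, with genes at an adjusted p under 0.05 as filled red circles, others open, and the median of each list as a blue bar. Medians of the 9 plotted lists other than spermatid markers lie between -0.072 (paralogues) and 0.077 (TFIID subunits and related factors). That of spermatid markers lies at -1.12, and markers of the other cell types are not plotted.

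Transcripts of cells further along differentiation were set beside these lists. Of 6 markers of differentiating spermatogonia, 0 were called in the authors' deposited table (DESeq2 Wald test; 3 had an unadjusted p under 0.05), with a median log2 fold change of -0.10. The smallest p values among them belonged to Dmrtb1, which controls the entry into meiosis (-0.91, SE 0.37, adjusted p 0.126), and Sohlh2 (0.23, SE 0.10, adjusted p 0.175) by the Wald test in the authors' deposited table. Both are the same values as in the list of other regulators above. Of 10 spermatocyte markers, 2 were called lower in the authors' deposited table, namely Piwil1, which encodes a piRNA-binding protein, and Sycp2, which encodes a synaptonemal complex protein. Piwil1 fell by 0.73 (SE 0.14) and Sycp2 by 0.53 (SE 0.15) in the authors' deposited table. The median of that list was -0.24, with 7 of 10 markers below 0 and 3 above, and 3.42% of all genes were called lower. The part of spermatocyte transcripts in the values of the 10 regulators was not tested.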

How the data were processed

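Total RNA libraries of 4 CreER/flox and 4 CreER/+ samples were compared by the authors. Per the submitters' processing notes, tools were DESeq2, Bowtie, TopHat2 (2.0.4), Trim Galore and Bowtie2 (2.0.0-6), and builds GRCm38 and mm10. The sources used here do not give the read counter, its strand setting or the annotation. The deposited mean is a signal of normalized counts over all libraries. Deposited fold changes and SEs are log2 values, and the score deposited with them is a Wald statistic. The deposited p-values matched a normal distribution of that score to within 0.426%, and their adjusted p-values a Benjamini-Hochberg adjustment over 14853 rows to within 0.424%. Depth per library was not used here, so precision is given by the SEs.

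No model was fitted across libraries. Genes were called at a deposited adjusted p under 0.05. Intervals are 95% normal intervals from the deposited SE. The smallest callable change is the SE times 3.00, the Wald statistic at which the adjusted p reaches 0.05. Entrez IDs matched RefSeq of GRCm38.p6 for 14828 rows, which gave coordinates. Strand, exons, overlaps and transcript lengths came from GENCODE M21, with lengths for 99.2% of rows. Lists are described by counts and medians, without a set test.

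The regulators and lists were chosen with earlier results of these data known. Named genes were all regulators, up to 4 called genes in each list or, with none called, up to 2 of smallest p, paralogues beside a regulator, and Tert. Genes outside this rule were named after their values were seen, among them Thy1, Mcam, Kit and the markers without a row in the check of the cell type. Genes of like pattern were not sought, since the table holds 1 fold change a gene. Steps were tested on simulated data. Alternatives were thresholds of 0.01 and 0.1, a t distribution, an estimated null SD, centring, a minimum log2 fold change, adjustment over fewer rows, and removal of a linear trend with length, GC content and mean count, weighted by the SE, over 13731 protein-coding rows. Scripts ran in Python 3.11.15 with scipy 1.17.1, numpy 2.4.6, pandas 2.3.3 and, for plots, matplotlib 3.10.9.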

Additional observations from a re-analysis of the deposited data

How the results depend on the processing

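The 10 regulators stayed above an adjusted p of 0.05 in all 56 values computed under the alternatives that give an adjusted p. Among these, the t distribution and the estimated null SD could only raise p. Only trend removal could have reversed a sign, since other alternatives left fold changes as deposited or, on centring, shifted them by 0.00071. The 10 regulators kept their signs with the trend removed. Their median log2 fold change was 0.055 as deposited, 0.055 when centred and 0.075 with the trend of length, GC content and mean count removed. At a threshold of 0.1, 1 regulator was called, Zbtb16, where 9.02% of all genes were. Its adjusted p ran from 0.0803, when the adjustment left out genes under a mean count of 100, to 0.788 with the estimated null SD. That of Pax7 ran from 0.150 with the trend removed to 0.879 with the estimated null SD. With the median in place of the longest transcript length, 8 of 10 regulators kept their place per kb, and Sall4 (4502 per kb, against 686 with the longest) stood above Zbtb16.

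Of 165 genes in the lists around them, 4 were called (Chd3, Mtor, Bmi1 and Zbtb1), or 2.42% against 5.36% of all genes. The count was 2 at a threshold of 0.01, 11 at 0.1 (6.67% against 9.02%), 6 when the adjustment left out genes under a mean count of 100 (with Mycn and Zbtb41 added), and 0 with a minimum log2 fold change of 0.5, with a t distribution of 6 degrees of freedom or with the estimated null SD. With the trend removed it was 3 (Chd3, Zbtb1 and Pax3), so that Bmi1 and Mtor were no longer called. Leaving out each replicate, a second normalization and a filter on the counts of each library were not run, since values per library were not used here. No paired analysis was possible because the table holds no column for a sample.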
